A study of Mus musculus with 8 samples.

Results

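The endoplasmic reticulum (ER) folds the proteins that a cell secretes, and 37 genes of its folding machinery and of the ATF4 stress response were followed here in fibro/adipogenic progenitors (FAPs) of dystrophic muscle. The genes were chosen by name, as ER chaperones and sensors of the unfolded protein response (22 genes, the ER arm) and as ATF4 with its partners and targets (15 genes, the ATF4 arm). They were taken from 31053 counted genes, of which 10181 had enough counts to be tested. Earlier results of these data were known when the 37 genes were chosen. The shares of all tested genes set beside them are therefore a description and not a test. All 37 were among the tested genes, so the counts and medians below cover every one of them, and the smallest count of a listed gene in any sample was 5.

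FAPs are the mesenchymal progenitors of skeletal muscle, which can give rise to fibroblasts and to fat cells. The cells came from hind limb muscles of 45 days old mice of the strain C57BL/10ScSn-Dmdmdx/J, which lack dystrophin, and both groups carry this mutation. FAPs were gated as CD45-, CD31- and ITGA7- cells that carry SCA-1, and split by high or low surface SCA-1 into SCA1-High-FAPs and SCA1-Low-FAPs. Both states were grown for 5 days in growth medium without any inducer before RNA was taken, with 4 samples per state. The study's description names 4 *mdx* mice as the source of both states. No wild type FAPs and no cells treated with an ER stressor were compared here, so the values describe a difference between 2 cell states and not a response.

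Secretory proteins enter the ER unfolded and are held there by the Hsp70 chaperone BiP (*Hspa5*), the Hsp90 chaperone GRP94 (*Hsp90b1*), the sugar-binding chaperones calnexin and calreticulin, and the disulfide isomerases. When unfolded proteins build up, the membrane sensors IRE1 (*Ern1*), PERK (*Eif2ak3*) and ATF6 start the unfolded protein response. IRE1 splices the mRNA of *Xbp1*, cleaved ATF6 and spliced XBP1 switch on chaperone genes, and PERK phosphorylates the initiation factor eIF2α, which favours translation of ATF4. ATF4 in turn switches on genes for amino acid synthesis and transport, and other kinases that sense amino acid shortage or viral RNA reach ATF4 without any ER stress. Counts taken at the 3′ end of transcripts show neither the splicing of *Xbp1*, nor the cleavage of ATF6, nor the phosphorylation of PERK and eIF2α.

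The promoters of several of these chaperone genes hold the ER stress response element (ERSE), the site that ATF6 and XBP1 are known to use together with NF-Y. The stretch from 250 bases before to 50 bases after the annotated start was searched on both strands for CCAAT, 9 bases of any kind, then CCACG, in RefSeq sequence on GRCm38.p6. Of the 22 ER arm genes, 19 had an entry, and 7 of these held the element, against 0.119% of the 32851 promoters searched. *Hsp90b1* held it 2 times. The elements are printed because the 3 genes called in the arm, and *Hspa5* itself, hold them. Each line runs 5′ to 3′ on the strand of its gene, with 15 bases on either side, and the capitals mark the CCAAT and CCACG boxes or their reverse complements.
Hspa5, chr2:34772010-34772058, + strand: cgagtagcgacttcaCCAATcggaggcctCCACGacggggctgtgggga
Hsp90b1, first element, chr10:86705623-86705671, - strand: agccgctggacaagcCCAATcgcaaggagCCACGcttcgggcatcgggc
Hsp90b1, second element, chr10:86705518-86705566, - strand: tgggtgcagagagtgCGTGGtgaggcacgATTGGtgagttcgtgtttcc
Calr, chr8:84847060-84847108, - strand: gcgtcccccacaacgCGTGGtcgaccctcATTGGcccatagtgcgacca
Canx, chr11:50325785-50325833, - strand: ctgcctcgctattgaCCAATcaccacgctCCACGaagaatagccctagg
Pdia6, chr12:17266476-17266524, + strand: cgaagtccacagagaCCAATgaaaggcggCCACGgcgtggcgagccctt
Dnajc3, chr14:118937812-118937860, + strand: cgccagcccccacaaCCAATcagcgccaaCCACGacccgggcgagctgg
Creld2, chr15:88819505-88819553, + strand: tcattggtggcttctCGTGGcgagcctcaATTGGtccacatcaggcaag

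A second form, ERSE-II, has ATTGG, 1 base of any kind, then CCACG. It was found in 2 of the 19 ER arm promoters, those of *Dnajb11* and *Herpud1*, against 0.0365% of all promoters, and the one of *Herpud1* is shown with its boxes in capitals. For the ATF4 arm the core of the C/EBP-ATF element, the site of ATF4 with a C/EBP partner, was searched as TGATG, 1 base of any kind, then AA. All 15 ATF4 arm genes had a promoter entry and 4 of them held this core (*Trib3*, *Chac1*, *Asns* and *Slc7a11*), as did *Herpud1*, against 3.97% of all promoters. *Slc7a11* held it 2 times. The elements of *Chac1* and *Slc7a11* are shown with the core or its reverse complement in capitals.
Herpud1, chr8:94386362-94386402, + strand: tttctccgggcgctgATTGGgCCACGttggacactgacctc
Chac1, chr2:119351034-119351071, + strand: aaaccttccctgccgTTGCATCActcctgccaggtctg
Slc7a11, first element, chr3:50443657-50443694, - strand: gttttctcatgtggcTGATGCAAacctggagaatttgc
Slc7a11, second element, chr3:50443638-50443675, - strand: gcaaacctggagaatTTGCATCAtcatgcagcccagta

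None of the 15 ATF4 arm promoters held an ERSE, and the UPRE core, an XBP1 and ATF6 site searched as TGACG directly followed by TGG, was in none of the 34 promoters, against 0.676% of all. A match is a description of letters in these windows and not a measured binding site, and the windows follow the annotated start, which need not be the one used in FAPs.

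The RNA was turned into 3′ tag libraries, in which a transcript yields reads near its 3′ end whatever its length, and the authors counted the reads per gene. Samples held 1880561 to 3985656 counts on genes. Levels are given as CPM, that is, counts scaled so that samples of unlike depth can be compared, after TMM normalisation, fold changes on the log2 scale, positive where SCA1-Low-FAPs were higher, with their standard error (SE), and *p*-values from edgeR's quasi-likelihood test adjusted over all tested genes. A gene was called when its adjusted *p* was under 0.05 and its log2 fold change was beyond 0.5 in size. Alignments counted as not unique were given to no gene. As a share of these plus the uniquely placed reads, they were 37.5% to 39.7% in SCA1-High-FAPs and 40.8% to 43.3% in SCA1-Low-FAPs. A read placed at several positions may count more than once in this share, whose ranges did not overlap. The part of this in the results was not tested. Of the 8 FAP genes listed, *Pdgfra*, *Dcn*, *Col1a1* and *Thy1* were counted in all samples, while *Dpp4* had no count in any. The myogenic regulators *Pax7*, *Myf5*, *Myod1* and *Myog* had no count in any sample either. *Ly6a*, which encodes SCA-1, had 492, 789, 645 and 919 CPM in SCA1-High-FAPs and 1099.7, 1079.7, 1156 and 1014 CPM in SCA1-Low-FAPs. Its mRNA after culture was thus higher in the cells sorted for low surface SCA-1 (log2 fold change 0.61, SE 0.17, edgeR adjusted *p* = 0.0341), and the groups are named here by the sort. Of 7 tested FAP genes, *Ly6a* and *Thy1* were called higher and *Dcn* lower in SCA1-Low-FAPs. Among all tested genes, 3.32% were called higher and 4.36% lower in SCA1-Low-FAPs.

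In the ER arm edgeR called 3 of the 22 genes (13.6%), *Hsp90b1*, *Calr* and *Creld2*, all higher in SCA1-Low-FAPs, where 3.32% of all tested genes were called in that direction. None of the 22 was called higher in SCA1-High-FAPs, where 4.36% of all tested genes were. Of the 22 genes, 17 had a log2 fold change above 0 and the median was 0.33, against 50% of all tested genes above 0 and a median of 0.00029. In 7 of the 22 (*Hsp90b1*, *Hspa5*, *Hyou1*, *Calr*, *Pdia6*, *Dnajc3* and *Creld2*) all 4 SCA1-Low-FAP samples stood above all 4 SCA1-High-FAP samples, as in 6.67% of all tested genes. No ER arm gene had the groups apart in the other direction, as in 7.46% of all tested genes. Since the genes were chosen with earlier results known, these shares are given without a test. The count of 3 became 5 without SCA1-High-FAPs replicate 3, with *Hspa5* and *Canx* added, and 1, *Hsp90b1*, without SCA1-Low-FAPs replicate 4.

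**Figure D1:**
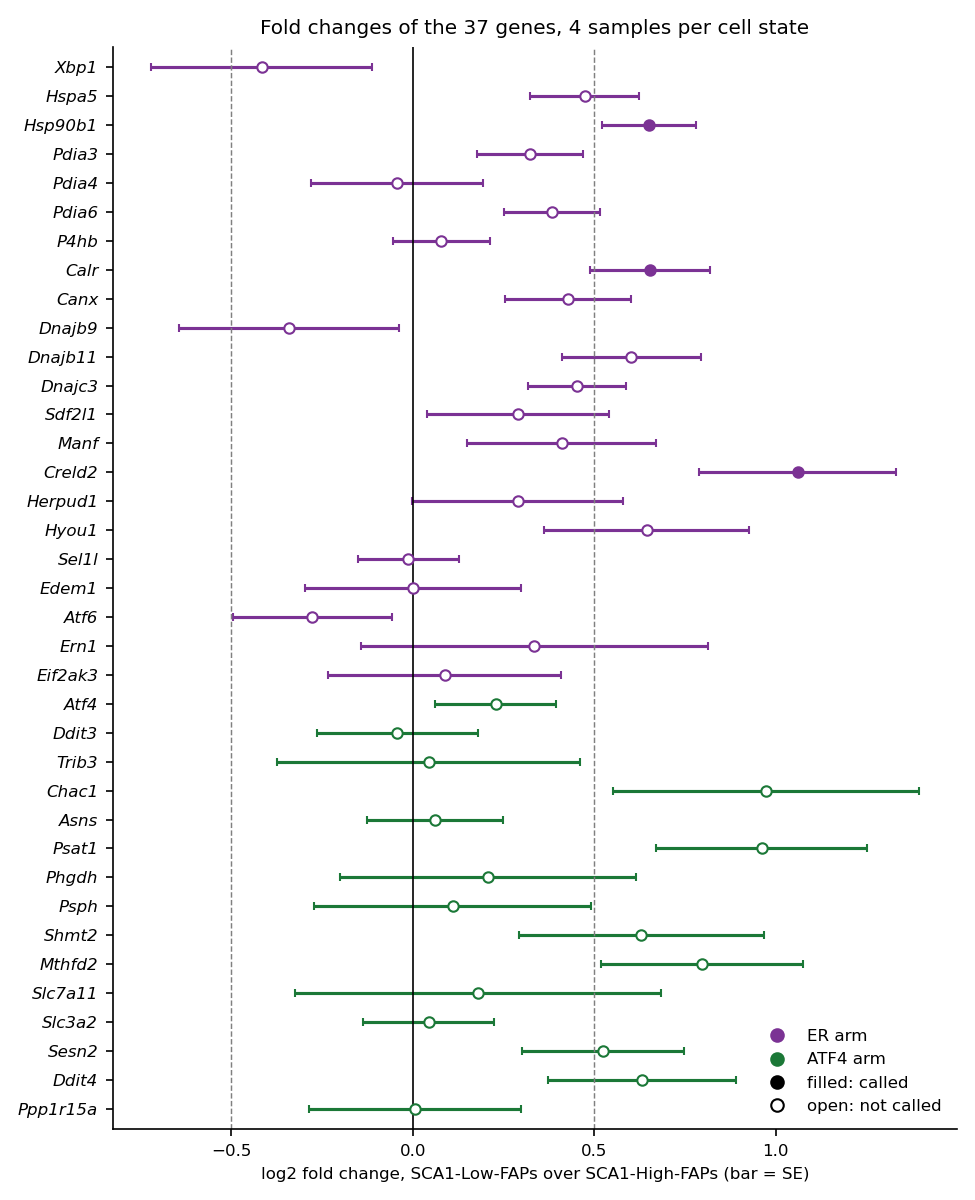
Log2 fold change (x axis, SCA1-Low-FAPs over SCA1-High-FAPs) of each of the 37 genes, with bars of 1 SE, from 4 samples per state; filled points were called and dashed lines mark the fold threshold of 0.5. *Hsp90b1*, *Calr* and *Creld2* are the filled points, and all ATF4 arm points are open.

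Of the 3 ER chaperones of the Hsp70 and Hsp90 kind, 1 was called, and all 3 had the states apart. *Hsp90b1* (chr10:86690209-86705509, - strand, GRCm38), which folds a restricted set of secreted and membrane proteins such as integrins and Toll-like receptors, had 1235, 1136, 1197 and 1343 CPM in the 4 SCA1-High-FAP samples and 1926, 1966, 1854 and 1963 CPM in the 4 SCA1-Low-FAP samples. The lowest SCA1-Low-FAP sample lay far above the highest SCA1-High-FAP sample, and the spread within each state was small. The level rose 1.57-fold (log2 fold change 0.65, SE 0.13, edgeR adjusted *p* = 0.00501), and the gene was called whichever single sample was left out. *Hspa5*, the most general ER chaperone and the classical marker of ER stress, had 1621, 1831, 2113 and 1683 CPM in SCA1-High-FAPs and 2437, 2333, 2195 and 3097 CPM in SCA1-Low-FAPs. The groups did not overlap, although SCA1-High-FAPs replicate 3 came close to SCA1-Low-FAPs replicate 3. Its log2 fold change of 0.47 (SE 0.15, edgeR adjusted *p* = 0.0636) missed both thresholds. It was called without either of these replicates (adjusted *p* = 0.0451 without SCA1-High-FAPs replicate 3 and 0.0468 without SCA1-Low-FAPs replicate 3). *Hyou1*, a large Hsp70-like protein that exchanges the nucleotide of BiP, stood at 11.0 to 21.7 CPM in SCA1-High-FAPs and 24.0 to 31.2 CPM in SCA1-Low-FAPs. Its log2 fold change of 0.64 had a wide error (SE 0.28, edgeR adjusted *p* = 0.192).

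The lectin chaperones calreticulin and calnexin hold glycoproteins that carry a trimmed sugar, calreticulin free in the lumen and calnexin in the membrane. *Calr* (chr8:84841850-84846934, - strand) had 1174, 1405, 1829 and 1379.6 CPM in SCA1-High-FAPs and 2208, 2155, 1894 and 2844 CPM in SCA1-Low-FAPs. SCA1-High-FAPs replicate 3 was again the highest of its state and SCA1-Low-FAPs replicate 4 the highest of all samples, and the groups did not overlap. *Calr* rose 1.57-fold (log2 fold change 0.65, SE 0.17, edgeR adjusted *p* = 0.0215). The call was lost without SCA1-High-FAPs replicate 1, 2 or 4 or SCA1-Low-FAPs replicate 1 or 4, with adjusted *p* from 0.0548 to 0.0950. *Canx* stood at 462 to 716 CPM in SCA1-High-FAPs and 616 to 948 CPM in SCA1-Low-FAPs, with overlap, and was not called (log2 fold change 0.43, SE 0.17, edgeR adjusted *p* = 0.154). It was called without SCA1-High-FAPs replicate 3 (adjusted *p* = 0.0497).

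**Figure D2:**
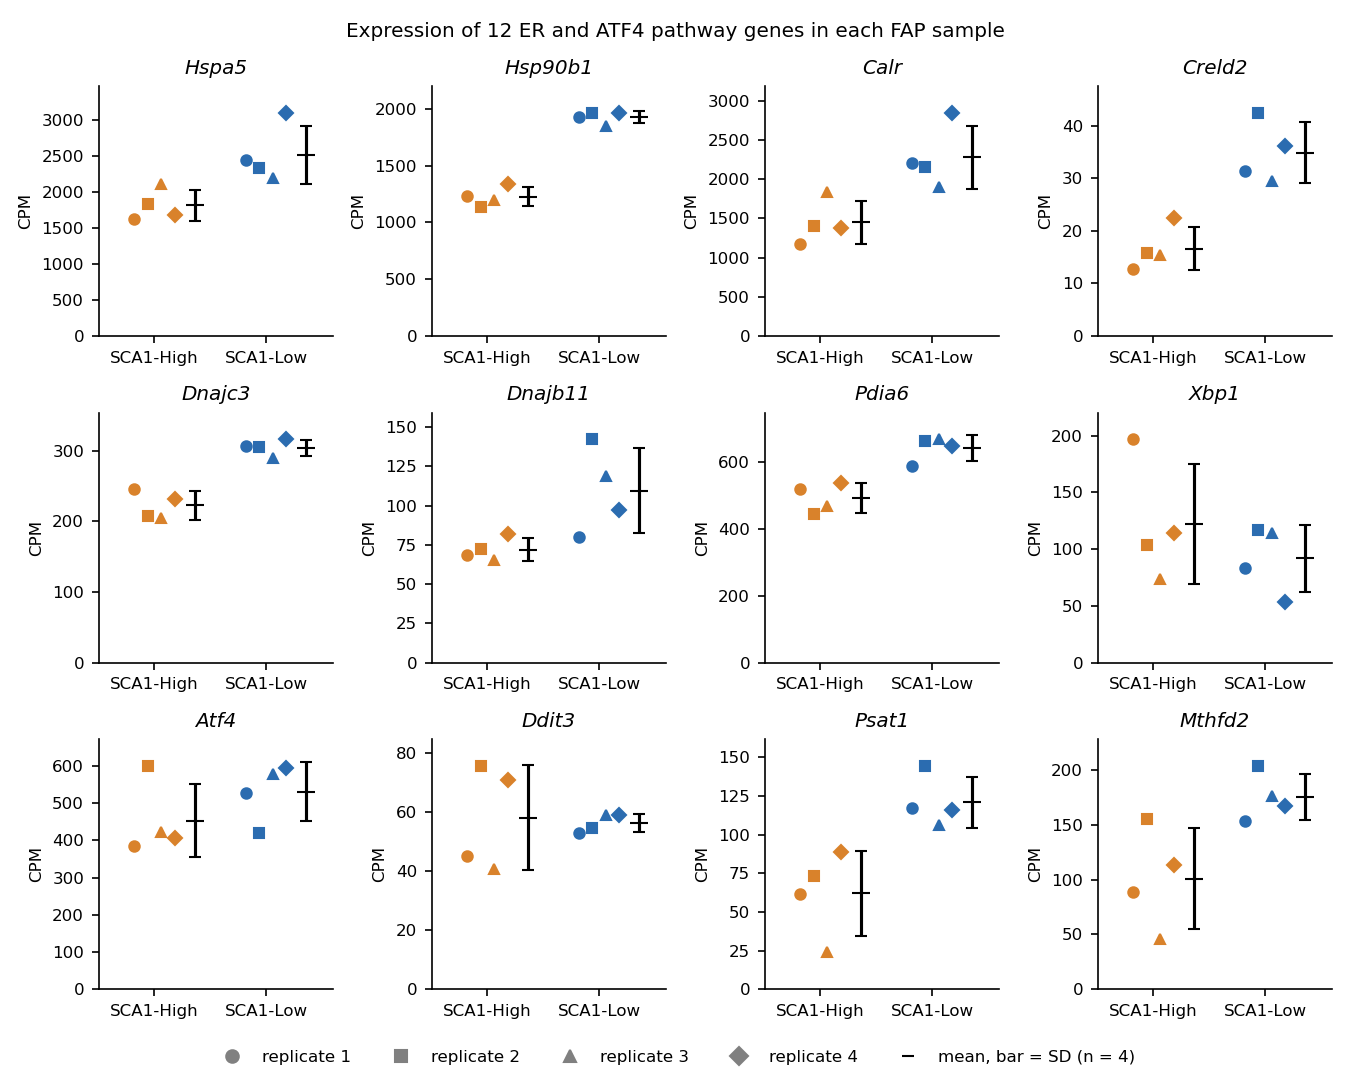
CPM (y axes, each from 0) of 12 genes in each sample, with a marker per replicate number and the mean with bars of 1 SD (n = 4) beside each state. *Hsp90b1*, *Calr*, *Creld2*, *Hspa5*, *Dnajc3* and *Pdia6* show no overlap between the states, whereas *Xbp1*, *Atf4* and *Ddit3* do, and replicate 3 of SCA1-High-FAPs is the lowest point of *Psat1* and *Mthfd2*.

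Among the small secreted factors of the ER, *Creld2* had the largest log2 fold change of the 37 genes. It encodes a calcium-binding protein of the ER lumen that is induced by ER stress in many cell types, and lies at chr15:88819646-88826683 on the + strand. Its level was 12.7, 15.8, 15.4 and 22.4 CPM in SCA1-High-FAPs and 31.4, 42.5, 29.5 and 36.2 CPM in SCA1-Low-FAPs, with every SCA1-Low-FAP sample above every SCA1-High-FAP sample. *Creld2* rose 2.09-fold (log2 fold change 1.06, SE 0.27, edgeR adjusted *p* = 0.0219), on a total of 533 counts over the 8 samples. The call was lost without SCA1-High-FAPs replicate 1 or SCA1-Low-FAPs replicate 2 or 4, with adjusted *p* from 0.0634 to 0.0731. *Manf*, a secreted survival factor that binds BiP, ran from 64.7 to 156 CPM in SCA1-High-FAPs and from 101 to 207 CPM in SCA1-Low-FAPs (estimated log2 fold change 0.41, SE 0.26, edgeR adjusted *p* = 0.410). It overlaps *Rbm15b* on its own strand and *Dcaf1* on the other, and the strand setting of the counting was not given, so its reads may be uncertain.

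The J proteins stimulate the ATPase of BiP, and none of the 4 J proteins and partners was called. *Dnajc3*, a J protein also known as an inhibitor of the kinases that phosphorylate eIF2α, had 246, 208, 204 and 231 CPM in SCA1-High-FAPs and 306, 305, 289 and 316 CPM in SCA1-Low-FAPs. The groups did not overlap, and the spread in SCA1-Low-FAPs was small. Its adjusted *p* of 0.0487 passed in edgeR, but its log2 fold change of 0.45 (SE 0.14) was under the fold threshold. *Dnajb11*, which brings unfolded proteins to BiP, had 68.3, 72.3, 65.5 and 81.8 CPM in SCA1-High-FAPs and 79.8, 142, 119 and 97.1 CPM in SCA1-Low-FAPs. SCA1-Low-FAPs replicate 1 lay within the range of SCA1-High-FAPs, and the gene was not called (log2 fold change 0.60, SE 0.19, edgeR adjusted *p* = 0.0623), though it was without that sample (adjusted *p* = 0.0431). *Dnajb9*, a J protein under strong control of spliced XBP1 that also represses IRE1, stood at 15.4 to 32.0 CPM in SCA1-High-FAPs and 13.5 to 23.2 CPM in SCA1-Low-FAPs (estimated log2 fold change -0.34, SE 0.30, edgeR adjusted *p* = 0.575). *Sdf2l1*, a partner of the J proteins and likewise an early ER stress gene, had a log2 fold change of 0.29 (SE 0.25, edgeR adjusted *p* = 0.563).

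None of the 4 disulfide isomerases was called. *Pdia6*, which also acts on IRE1, had 517, 443, 466 and 537 CPM in SCA1-High-FAPs and 585, 662, 666 and 648 CPM in SCA1-Low-FAPs, without overlap (log2 fold change 0.38, SE 0.13, edgeR adjusted *p* = 0.0895). *Pdia3*, the isomerase that works with calnexin and calreticulin, had a log2 fold change of 0.32 (SE 0.15, edgeR adjusted *p* = 0.209), with 672 to 849.6 CPM in SCA1-High-FAPs and 825 to 1107 CPM in SCA1-Low-FAPs. *P4hb*, the classical disulfide isomerase and a subunit of the collagen prolyl hydroxylase, stood at 825 to 1048 and 949.6 to 1071 CPM (log2 fold change 0.08, SE 0.13, edgeR adjusted *p* = 0.806). *Pdia4* had a log2 fold change of -0.04 (SE 0.24, edgeR adjusted *p* = 0.948), which became 0.24 without SCA1-High-FAPs replicate 3, the sample with the highest *Pdia4* level of all (585 CPM).

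The sensors, *Xbp1* and the degradation genes were not called. *Atf6* had 67.3, 40.2, 45.5 and 52.1 CPM in SCA1-High-FAPs and 36.7, 44.6, 40.6 and 47.0 CPM in SCA1-Low-FAPs (estimated log2 fold change -0.28, SE 0.22, edgeR adjusted *p* = 0.517). *Ern1*, which encodes IRE1, was counted at 8.0, 3.62, 16.7 and 9.17 CPM in SCA1-High-FAPs and at 16.4, 8.17, 15.9 and 7.13 CPM in SCA1-Low-FAPs, and its wide spread left a log2 fold change of 0.34 with an SE of 0.48 (edgeR adjusted *p* = 0.760). The overlap of the states was wide for both of these sensors. *Eif2ak3*, which encodes PERK, had 27.8, 18.5, 13.8 and 13.6 CPM in SCA1-High-FAPs and 14.0, 19.6, 24.4 and 19.5 CPM in SCA1-Low-FAPs (estimated log2 fold change 0.09, SE 0.32, edgeR adjusted *p* = 0.918). *Xbp1*, whose total mRNA is itself a target of ATF6 but whose spliced form is not resolved by these tags, had 196.8, 104, 73.9 and 114 CPM in SCA1-High-FAPs and 83.1, 117, 114 and 53.3 CPM in SCA1-Low-FAPs. Its highest sample was SCA1-High-FAPs replicate 1, its lowest SCA1-Low-FAPs replicate 4, and the other samples of both states lay between them (log2 fold change -0.42, SE 0.30, edgeR adjusted *p* = 0.487). Without SCA1-High-FAPs replicate 1 the log2 fold change of *Xbp1* was -0.09. The genes of ER-associated degradation, which sends misfolded proteins to the proteasome, had log2 fold changes of -0.01 (SE 0.14) for *Sel1l*, 0.0013 (SE 0.30) for *Edem1* and 0.29 (SE 0.29) for *Herpud1*, with edgeR adjusted *p* of 0.977, 0.998 and 0.633. The SE of *Sel1l* was small, and that of *Edem1* and *Herpud1* did not allow a change of the size seen in *Hspa5* to be told from none.

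The 7 ER arm genes with an ERSE (*Hspa5*, *Hsp90b1*, *Calr*, *Canx*, *Pdia6*, *Dnajc3* and *Creld2*) all had log2 fold changes above 0, from 0.38 to 1.06 with a median of 0.47. The 12 whose promoters held no ERSE ran from -0.42 to 0.60 with a median of 0.08, and 8 of them were above 0. Among these 12 were *Dnajb11* (0.60) and *Herpud1* (0.29), which held an ERSE-II. All 3 called genes were among the 7. *Manf*, *Hyou1* and *Atf6* had no promoter entry and are in neither count. The split was made after fold changes of these data were known, so it is given as a description without a test.

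**Figure D3:**
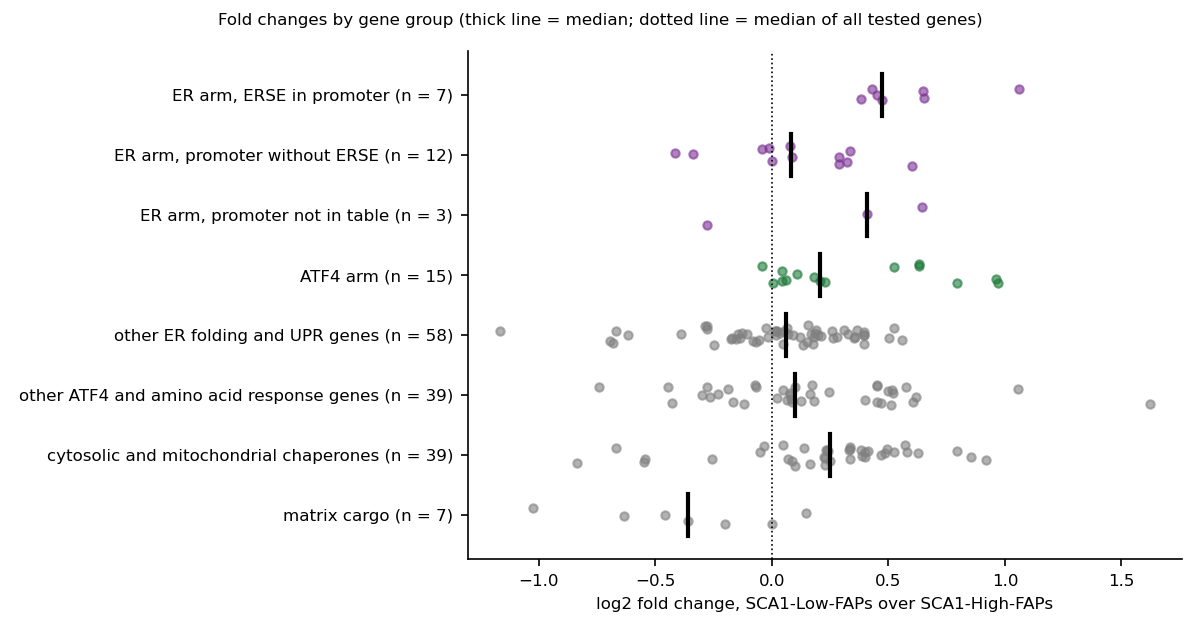
Log2 fold changes (x axis, SCA1-Low-FAPs over SCA1-High-FAPs) of the tested genes of each group, 1 point per gene, with the group's median as a thick line and the median of all tested genes as a dotted line; points are spread vertically only to separate them. ER arm genes with an ERSE all lie right of 0 around a median of 0.47, and the matrix cargo genes lie mostly left of 0 around a median of -0.36.

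Summed over the arm, the ER arm genes took 8004, 8560.4, 9569.6 and 8439 CPM in SCA1-High-FAPs and 11387, 11305, 10629.5 and 13117 CPM in SCA1-Low-FAPs. The means were 8643 ± 662 and 11609.5 ± 1061 CPM (SD, n = 4), a log2 ratio of 0.43, and the states did not overlap. *Hspa5*, *Calr* and *Hsp90b1* alone held 50.3% to 60.3% of the sum, so it follows those 3 genes, and the mean over the members' log2 CPM gave a smaller difference of 0.29. In bulk samples more RNA per cell and more cells with a high level cannot be told apart.

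In the ATF4 arm edgeR called 0 of the 15 genes, which is near the 3.32% of all tested genes called higher in SCA1-Low-FAPs. Under an unadjusted edgeR *p* of 0.05 were 5 (*Psat1*, *Mthfd2*, *Ddit4*, *Sesn2* and *Chac1*), beside 2164 of all 10181 tested genes. DESeq2 called 2, *Psat1* and *Mthfd2*, where it called 458 of 15873 genes higher in SCA1-Low-FAPs. edgeR called 1 without SCA1-High-FAPs replicate 2 (*Mthfd2*), 3 or 4 (*Psat1* in both), and 1 with no filter on low counts (*Psat1*). Of the 15 genes, 14 had a log2 fold change above 0, against 50% of all tested genes, though many lay close to it, and the median was 0.21. Several of these signs rested on 1 sample. Without SCA1-High-FAPs replicate 3, *Trib3*, *Slc7a11*, *Psph*, *Phgdh*, *Slc3a2* and *Asns* had log2 fold changes below 0, from -0.21 to -0.056, and *Ddit3* had -0.18. *Psat1*, *Mthfd2*, *Shmt2*, *Chac1*, *Sesn2*, *Ddit4* and *Atf4* stayed above 0 in that fit. In 2 of them, *Psat1* and *Sesn2*, every SCA1-Low-FAP sample stood above every SCA1-High-FAP sample, as in 6.67% of all tested genes.

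The transcription factors of the arm had overlapping states. *Atf4* (chr15:80255184-80257541, + strand) had 385, 599, 422 and 406 CPM in SCA1-High-FAPs and 527, 419.8, 579 and 595 CPM in SCA1-Low-FAPs (estimated log2 fold change 0.23, SE 0.17, edgeR adjusted *p* = 0.476). SCA1-High-FAPs replicate 2 was the highest sample of all, and leaving it out gave a log2 fold change of 0.40. ATF4 is controlled mainly at translation, which counts of its mRNA do not show. *Ddit3*, which encodes the stress factor CHOP, had 45.2, 75.5, 40.5 and 70.8 CPM in SCA1-High-FAPs and 52.7, 54.4, 59.0 and 58.9 CPM in SCA1-Low-FAPs. The SCA1-High-FAP samples lay on both sides of the narrow SCA1-Low-FAP range (log2 fold change -0.04, SE 0.22, edgeR adjusted *p* = 0.943). *Ddit3* overlaps *Mars* on the opposite strand, a gene with 1442 counts against its own 1171, and the 2 cannot be separated for certain without the strand setting.

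ATF4 is known to induce the enzymes of serine synthesis and of mitochondrial one-carbon metabolism, and 2 of these 5, *Psat1* and *Mthfd2*, had the lowest adjusted *p*-values of the arm. *Psat1* (chr19:15904678-15947337, - strand), the second enzyme of serine synthesis, had 61.7, 73.2, 24.2 and 88.4 CPM in SCA1-High-FAPs and 117, 144, 106 and 116 CPM in SCA1-Low-FAPs. The states did not overlap, and SCA1-High-FAPs replicate 3 stood well below the rest. Its log2 fold change was 0.96 (SE 0.29, edgeR adjusted *p* = 0.0606, DESeq2 adjusted *p* = 0.0163), and 0.69 without that sample, where the call passed (edgeR adjusted *p* = 0.0355). *Mthfd2*, which oxidises the one-carbon unit in mitochondria, had 89.0, 156, 45.9 and 113 CPM in SCA1-High-FAPs and 154, 204, 176 and 167 CPM in SCA1-Low-FAPs (estimated log2 fold change 0.80, SE 0.28, edgeR adjusted *p* = 0.108, DESeq2 adjusted *p* = 0.0432). *Shmt2*, which supplies that unit from serine, had a log2 fold change of 0.63 (SE 0.34, edgeR adjusted *p* = 0.314). *Phgdh* and *Psph*, the first and the last enzyme of serine synthesis, had log2 fold changes of 0.21 (SE 0.41) and 0.11 (SE 0.38), and whether they differed from *Psat1* was not tested. *Asns*, the asparagine synthetase, had 0.06 (SE 0.19, edgeR adjusted *p* = 0.900).

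The feedback and effector genes were not called either. *Chac1*, which breaks down glutathione, was low and spread, with 6.60 to 16.3 CPM in SCA1-High-FAPs and 10.2 to 31.0 CPM in SCA1-Low-FAPs (estimated log2 fold change 0.97, SE 0.42, edgeR adjusted *p* = 0.185). The mTORC1 inhibitors *Ddit4* and *Sesn2* had log2 fold changes of 0.63 (SE 0.26, edgeR adjusted *p* = 0.157) and 0.52 (SE 0.22, edgeR adjusted *p* = 0.178). *Sesn2* stood at 25.1 to 30.8 CPM in SCA1-High-FAPs and 36.7 to 43.1 CPM in SCA1-Low-FAPs, without overlap. *Trib3*, a pseudokinase that restrains ATF4, and *Ppp1r15a*, which brings a phosphatase to eIF2α, had log2 fold changes of 0.04 (SE 0.42) and 0.0068 (SE 0.29). The cystine transporter *Slc7a11* and its partner *Slc3a2* had 0.18 (SE 0.50) and 0.04 (SE 0.18). The 4 ATF4 arm genes with a C/EBP-ATF core in the promoter had a median log2 fold change of 0.12 and the 11 without one 0.23.

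SCA1-High-FAPs replicate 3 stood apart in the ATF4 arm. It held the lowest level of the 8 samples for 11 of the 15 genes (73.3%), where it held the lowest for 18.8% of all tested genes. Its summed ATF4 arm level was 874 CPM, beside 1059, 1519 and 1218 CPM in the other SCA1-High-FAP samples and 1426, 1424, 1559 and 1412 CPM in SCA1-Low-FAPs. The means were 1167 ± 273 and 1455 ± 69.6 CPM (SD, n = 4), a log2 ratio of 0.32, which was 0.20 without that sample and 0.47 without SCA1-High-FAPs replicate 2. The mean over the members' log2 CPM gave a difference of 0.43, beside 0.29 for the ER arm. The sums of the 4 SCA1-Low-FAP samples were thus close together, and that of SCA1-High-FAPs replicate 2 lay among them. *Atf4* alone gave 599 of the 1519 CPM in SCA1-High-FAPs replicate 2 and 420 to 595 CPM in the SCA1-Low-FAP samples, so the sum leans on that gene. In the ER arm SCA1-High-FAPs replicate 3 was lowest for 5 of 22 genes and SCA1-Low-FAPs replicate 4 highest for 7 (31.8%), where the latter was highest for 12% of all tested genes.

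**Figure D4:**
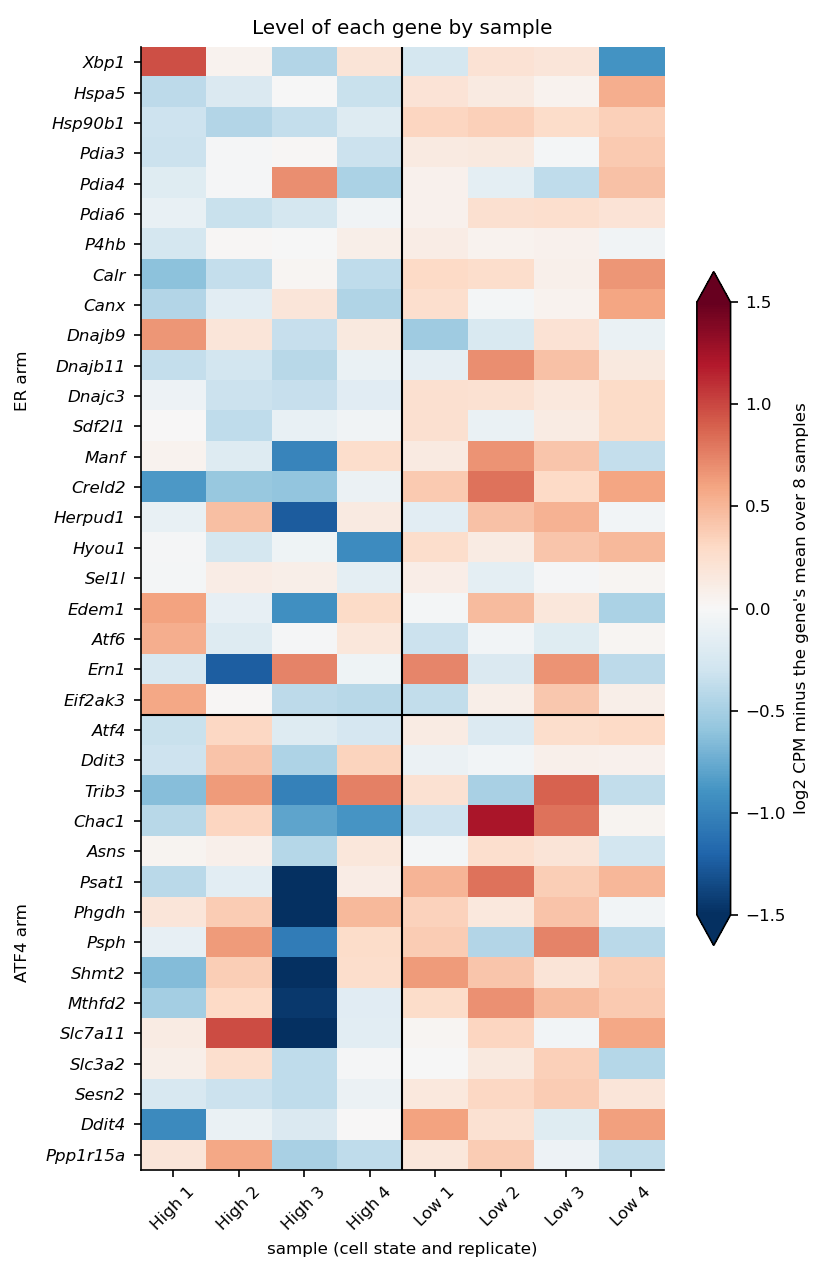
Log2 CPM of each gene (rows) in each sample (columns) minus the gene's mean over the 8 samples, red above and blue below, with colours ending at 1.5 in either direction; lines part the cell states and the arms. The dark blue column in the ATF4 arm is SCA1-High-FAPs replicate 3, lowest for 11 of 15 genes, and the *Hsp90b1* row changes colour at the line between the states.

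Of 60 further genes of ER folding, translocation and degradation, 58 were tested, and edgeR called 0 higher and 3 lower (5.17%) in SCA1-Low-FAPs, both near the 3.32% and 4.36% of all tested genes called in those directions. DESeq2 called 1 of them higher, as did edgeR without SCA1-Low-FAPs replicate 3, and edgeR called 2 higher with no filter on low counts. Their median log2 fold change was 0.06, with 36 of the 58 above 0. In 6 of them every SCA1-Low-FAP sample stood above every SCA1-High-FAP sample, beside 6.67% of all tested genes. In 3 of them the states were apart in the other direction, beside 7.46% of all tested genes. The genes that edgeR called lower were *Crebrf* (log2 fold change -1.17, SE 0.22, adjusted *p* = 0.00336), *Os9* (-0.68, SE 0.18, adjusted *p* = 0.0232) and *Fkbp7* (-0.69, SE 0.19, adjusted *p* = 0.0304). *Crebrf* encodes a regulator known to restrain CREB3, a transcription factor held in the ER membrane. *Os9* encodes a lectin of ER-associated degradation, and *Fkbp7* a prolyl isomerase of the ER. Between 31.0 and 63.4 CPM were counted for *Crebrf* in SCA1-Low-FAPs and 86.4 to 121 CPM in SCA1-High-FAPs, without overlap. Of the 58 genes, edgeR called 1, lower in SCA1-Low-FAPs, without SCA1-High-FAPs replicate 3, SCA1-Low-FAPs replicate 1 or SCA1-Low-FAPs replicate 4. Without SCA1-Low-FAPs replicate 3 it called 1 higher and 4 lower.

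Of 46 further ATF4 and amino acid response genes, 39 were tested, and edgeR called 1 (2.56%, beside 3.32% of all tested genes) higher in SCA1-Low-FAPs. This was *Mthfd1l*, which makes formate from the one-carbon unit in mitochondria, downstream of *Mthfd2*. It had 20.7, 35.3, 12.5 and 23.8 CPM in SCA1-High-FAPs and 59.0, 51.7, 31.4 and 50.7 CPM in SCA1-Low-FAPs, overlapping at SCA1-High-FAPs replicate 2 and SCA1-Low-FAPs replicate 3. *Mthfd1l* rose (log2 fold change 1.06, SE 0.30, adjusted *p* = 0.0373), and the median of the list was 0.10, with 27 of 39 above 0. The count was 0 without SCA1-High-FAPs replicate 3 or SCA1-Low-FAPs replicate 1, 2 or 4, and 2 without SCA1-High-FAPs replicate 2 or SCA1-Low-FAPs replicate 3. Without SCA1-High-FAPs replicate 4, 1 gene was called higher and 1 lower in SCA1-Low-FAPs.

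Some chaperones outside the ER were called as well. Of 39 tested chaperones and proteases of the cytosol and mitochondria, 32 had a log2 fold change above 0, with a median of 0.25, and edgeR called 4 higher (10.3%, beside 3.32% of all tested genes) and none lower in SCA1-Low-FAPs. In 8 of the 39 every SCA1-Low-FAP sample stood above every SCA1-High-FAP sample, beside 6.67% of all tested genes. In 0 of them the states were apart in the other direction, beside 7.46% of all tested genes. *Hsp90aa1*, the inducible cytosolic relative of *Hsp90b1*, rose by 0.63 (SE 0.15, adjusted *p* = 0.0166). *Cct3* and *Cct7*, subunits of the ring that folds actin and tubulin, rose by 0.58 (SE 0.16, adjusted *p* = 0.0290) and 0.52 (SE 0.14, adjusted *p* = 0.0309), and the small heat shock protein *Hspb1* by 0.92 (SE 0.24, adjusted *p* = 0.0291), all on the log2 scale. The count was 2 without SCA1-High-FAPs replicate 1 or 2, 1 without SCA1-Low-FAPs replicate 2, and 0 without SCA1-Low-FAPs replicate 1 or 4.

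Collagens and other matrix proteins are the main cargo that the ER of a fibroblast folds. Of 7 such genes (*Col1a1*, *Col1a2*, *Col3a1*, *Col5a1*, *Col5a2*, *Fn1* and *Sparc*), 6 had a log2 fold change below 0, with a median of -0.36, and edgeR called 2 lower in SCA1-Low-FAPs, where 4.36% of all tested genes were. *Col3a1* had 5820.2, 3974, 5227 and 5445 CPM in SCA1-High-FAPs and 1761, 2747, 3974 and 1562 CPM in SCA1-Low-FAPs (estimated log2 fold change -1.03, SE 0.26, adjusted *p* = 0.0294). *Fn1* fell by 0.64 on the log2 scale (SE 0.15, adjusted *p* = 0.0165). The 7 genes summed to 41255 to 47225 CPM in SCA1-High-FAPs and 26362 to 40944 CPM in SCA1-Low-FAPs.

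Markers of other cell types and of division also moved with the sort. All 6 cycling genes were called higher in SCA1-Low-FAPs, and their sum was 524 to 734 CPM in SCA1-High-FAPs and 1021 to 1494 CPM in SCA1-Low-FAPs. Of 9 tested adipocyte genes 5 were called higher in SCA1-High-FAPs, with sums over the 10 listed of 1252 to 7101 and 138 to 702 CPM. All 3 tested pericyte and smooth muscle genes, *Acta2* among them, were called higher in SCA1-Low-FAPs, with sums over the 5 listed of 459.7 to 1458 and 1961 to 2987 CPM. Of 6 leukocyte genes *Lyz2* alone was tested and was called higher in SCA1-High-FAPs, with sums of 25.3 to 48.0 and 12.5 to 19.3 CPM and with *Adgre1* and *Cd3e* at 0. The 7 myogenic genes summed to at most 12.5 CPM and the 5 endothelial genes to at most 7.39 CPM in any sample. The part of dividing, fat-forming and contractile cells in the values of the ER and ATF4 arms was not tested.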

How the data were processed

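FAPs of *mdx* mice were profiled by 3′ mRNA sequencing, with 4 SCA1-High-FAP and 4 SCA1-Low-FAP samples grouped by label. After trimming, the authors mapped reads to mm10 (STAR), assigned them to Ensembl 93 genes (htseq-count) and deposited raw counts per gene. The strand setting is not given in the sources used here. Of 31053 genes, 31011 matched GENCODE M21 (GRCm38), and summary entries were left out. Samples held 1880561 to 3985656 counts, and 3 counts stood at 0.753 to 1.60 CPM, which covers counting error only. The labels do not tie each sample to its own mouse, so *p*-values measure the spread between samples.

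Counts were tested with edgeR 4.0.16 (R 4.3.3; robust quasi-likelihood test, TMM, filterByExpr with 10 counts in enough samples and 15 in total, Benjamini-Hochberg adjustment over 10181 genes), without a block. The common biological coefficient of variation was 0.279. SEs were derived from the F statistic (size of the log2 fold change over √F). The alternatives were DESeq2 1.42.0, a replicate block, RLE factors, other filters and thresholds, and leaving out each sample. The fit was tested on simulated data. Promoters came from RefSeq on GRCm38.p6, with 34 of 37 genes matched by symbol.

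The 37 genes and the lists were chosen with earlier results of these data known. Of the 37 genes, sample values are given for called genes, for *Atf4*, *Ddit3*, *Xbp1*, *Hspa5*, *Atf6*, *Ern1* and *Eif2ak3*, and for genes with adjusted *p* under 0.1. At most 6 called genes per further list are named. Any other gene was named after its values were seen.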

Additional observations from a re-analysis of the deposited data

Results flagged for a closer look

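*Atf4* in SCA1-High-FAPs replicate 2 stood at 599 CPM, apart from the 385 to 422 CPM of the other 3 samples of its state. The gap to the nearest sample, as a share of the range of the 4, was just above Dixon's critical value for groups of that size. The 37 genes gave 74 groups of 4 samples and this was the 1 that passed, where chance passes about 1 in 20. The value lies at the level of the highest SCA1-Low-FAP sample (595 CPM).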

How the results depend on the processing

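*Ern1*, *Slc7a11*, *Phgdh* and *Chac1* were among the genes with few counts. Their SE of 0.41 to 0.50 cannot separate a change below the fold threshold from none. The part of depth and of spread between samples in these errors was not tested. *Hsp90b1* was called in every fit that was run. The 782 calls over all genes became 307 at an adjusted *p* under 0.01 and ran from 410 to 1017 with each sample left out in turn. At that stricter *p* the calls were 1 in the ER arm, 1 in the other ER genes, 0 in the other ATF4 genes and 0 in the cytosolic and mitochondrial chaperones. With no filter on low counts they were 1 in the ATF4 arm (*Psat1*), 5 in the other ER genes and 4 in the other ATF4 genes. DESeq2 called 2 in the ATF4 arm and 3 in the other ATF4 genes. Leaving out each sample gave 1 to 5 calls in the ER arm, 0 to 1 in the ATF4 arm, 1 to 5 in the other ER genes, 0 to 2 in the other ATF4 genes and 0 to 5 in the cytosolic and mitochondrial chaperones. The difference in summed ER arm level, 0.43 on the log2 scale, was 0.29 as a mean over log2 CPM. The cause of these shifts was not tested.

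Deviations of same-numbered samples correlated at -0.0165, 0.00673, -0.0137 and -0.0502, so no pairing by replicate number was seen. Such values cannot exclude that same-numbered samples came from the same mouse, and the labels do not say. With the replicate number as a block, edgeR called 2 genes of the ATF4 arm, *Psat1* (adjusted *p* = 0.0234) and *Mthfd2* (0.0397), 2 other ATF4 genes and 2 cytosolic and mitochondrial chaperones, and *Calr* had an adjusted *p* of 0.0572. DESeq2 with the block called 2 in the ATF4 arm and 2 other ATF4 genes. *Ddit3* had log2 fold changes of 0.0018 and 0.0030 with the block in edgeR and DESeq2.

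Genes near 0 changed sign, none of them called. *Sel1l* had 0.0060 without a filter, and *Edem1* and *Ppp1r15a* had -0.024 and -0.018 where 10 counts were asked of every sample. With each sample left out, the log2 fold change ran from -0.22 to 0.24 for *Pdia4*, from -0.060 to 0.037 for *Sel1l*, from -0.23 to 0.24 for *Edem1*, from -0.056 to 0.36 for *Eif2ak3*, from -0.18 to 0.11 for *Ddit3*, from -0.34 to 0.35 for *Trib3*, from -0.056 to 0.15 for *Asns*, from -0.13 to 0.41 for *Phgdh*, from -0.19 to 0.38 for *Psph*, from -0.16 to 0.72 for *Slc7a11*, from -0.091 to 0.17 for *Slc3a2* and from -0.14 to 0.26 for *Ppp1r15a*.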

Other observations

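Outside the 37 genes, 5 tested genes held an ERSE in their promoter window, *Adcy3*, *Alg12*, *Hnrnpa3*, *Spats2l* and *Syvn1*. They were named after their values were seen. edgeR called none of them, their log2 fold changes ran from -0.75 to 0.54 with a median of -0.12, and 1 was above 0. *Syvn1*, the ubiquitin ligase of ER-associated degradation and a known target of the unfolded protein response, had a log2 fold change of -0.39 (SE 0.38, adjusted *p* = 0.615). Of 6 further tested genes with an ERSE-II, edgeR called none, and their median was -0.08. The C/EBP-ATF core was held by 208 tested genes outside the 37, of which 6 were called higher and 10 lower in SCA1-Low-FAPs, with a median of 0.0078.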
